A study of Saccharomyces cerevisiae with 36 samples.

Results

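MCPA-ME, the methyl ester of the phenoxy herbicide MCPA, was added to growing cultures of the budding yeast Saccharomyces cerevisiae, and the transcripts of these cultures were set against those of cultures kept without it. The arrays were found by their titles: 3 arrays of cultures with the herbicide and 3 of the matching controls, 6 of the 36 arrays in the series. The other 30 arrays hold 5 further pesticides (alachlor, carbofuran, diuron, pyrimethanil and S-metolachlor) with a control group for each. The MCPA-ME IC20 group received 115 mg/L, a dose labelled IC20. The IC20 doses were taken as equitoxic across the 6 pesticides. The MCPA-ME control group received none (0 mg/L). Both groups were BY4741 cells in exponential growth in minimal medium at pH 6.5 and 30 °C, both were harvested at 2 h, and the series description says that each pesticide and its controls were run together. The 3 replicates of a group are described as independent biological ones. BY4741 is a laboratory haploid with the MATa mating type that lacks LEU2, MET17 and URA3 and carries a partial deletion of HIS3. RNA was hybridised to Affymetrix Yeast Genome 2.0 arrays, and the values are probe set intensities, raised to a floor of 32 before log2 was taken. A log2 change is the IC20 mean minus the control mean, and its error is the standard error (SE) from a limma fit to these 6 arrays alone. The 5449 annotated genes were all tested, and a gene is called, or said to have risen or fallen, at a Benjamini-Hochberg adjusted p under 0.05.

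Yeast resists many lipophilic compounds by pleiotropic drug resistance, in which the transcription factors Pdr1 and Pdr3 switch on ATP-binding cassette (ABC) exporters of the plasma membrane and enzymes and transporters of membrane lipids. A separate exporter, Pdr12, carries weak organic acids out of the cell and is controlled by the regulator War1. MCPA is such a weak acid, and its methyl ester lacks the free acid group until it is hydrolysed.

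The IC20 arrays varied more than any other group of the series. The residual spread over all genes was 0.35 log2 units in the IC20 group, the highest of the 12 groups. The control group had 0.263, nearly the same as the 0.262 of the carbofuran IC20 group. By the median spread per gene the control group was below that carbofuran group (0.153 against 0.164). IC20 replicate 2 stood apart: 8.04% of genes lay more than 2-fold from its fellows, against 0.128% to 2.55% for the other 5 arrays. Its correlation with the other IC20 arrays over genes was 0.957 and 0.965, whereas those 2 correlated at 0.994 with each other. Median intensity ranged over the 6 arrays from 1357.8 to 1432.4. Values without it are given beside the results it bears on most. The strain markers were those of MATa cells. The a-factor gene MFA2 read 24340, 24190 and 25390 with MCPA-ME and 22920, 22690 and 25240 without. The alpha-factor receptor gene STE2 read 19930, 17160 and 18920 with MCPA-ME and 18490, 16910 and 17720 in controls. Both defining markers were thus high in every array. The MATalpha gene STE3, which encodes the a-factor receptor, stayed between 187.8 and 249.6 in IC20 arrays and between 111.7 and 146 in control arrays. The alpha-factor gene MF(ALPHA)1 read 42.0 to 63.0 in IC20 arrays and was under the floor in all 3 controls. Neither of these MATalpha changes was called (adjusted p = 0.12 for STE3 and 0.15 for MF(ALPHA)1). Of 4 MATalpha genes measured 0 were called, with a median log2 change of 0.52. Without IC20 replicate 2, 1 of the 4 was called higher, against 2.29% of all genes. Set against the other 5 pesticides, 1 of the 4 differed upward, against 0.367% of all genes. Of 7 MATa genes measured 0 were called, with a median log2 change of 0.22. URA3 was under the floor in all 6 arrays, and LEU2 read 67.2 to 107.8 in IC20 arrays and 100.3 to 115.8 in controls. MET17 read 19.3 to 68.2 in IC20 arrays and was under the floor in controls. HIS3 read 9647 to 10210 in IC20 arrays and 7742 to 11320 in controls. Where its probe set lies relative to the partial deletion is not known here.

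With MCPA-ME 48 genes rose (0.881% of those tested) and 15 fell (0.275%), together 63 (1.16%). The leading rises were RSB1, CIS1, GRE2 and ICT1, and the deepest falls among named genes were PDR12, YBL029W and HXT2. Called rises ran from 0.59 to 5.40 on the log2 scale and called falls from -0.55 to -2.93, against a median of -0.02 over all genes. In all 63 the IC20 values lay wholly above or wholly below the control values. That was also so for 18.6% of all genes, 10.8% higher and 7.74% lower. An unadjusted p under 0.05 was reached by 417 genes that were higher (7.65%) and 284 that were lower (5.21%). The number of calls depended on single arrays. Without IC20 replicate 2, limma called 125 genes higher (2.29%) and 278 lower (5.1%), and all 63 were among them. Without IC20 replicate 1 or IC20 replicate 3 it called 0 genes, with 399 and 261 higher and 290 and 194 lower at an unadjusted p under 0.05. Without control replicate 1, 2 or 3 it called 6, 1 and 2 genes higher and 0 lower. At an unadjusted p under 0.05, 202, 161 and 283 were lower. RSB1 was among the called genes in each of these 3 fits, and all the called genes were among the 63. Thus, with 1 array left out, genes that missed the threshold with all 6 passed only without IC20 replicate 2.

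The 2 largest rises were in targets of Pdr1 and Pdr3, RSB1 and CIS1. Of 17 listed, 16 were measured (LAF1 was not), 9 rose against 0.881% of all genes, and 0 fell, with 0 also at an unadjusted p under 0.05. All 16 log2 changes were positive, from 0.03 to 5.40, with a median of 1.63 against -0.02 over all genes. In 12 of the 16 the IC20 arrays lay above all control arrays, against 10.8% of all genes. Without IC20 replicate 2 the count was 10, against 2.29% of all genes. It was 0 without IC20 replicate 1 or 3, where 0 of all genes were called. Without control replicate 1 it was 4, where 6 of all genes were called higher. Without control replicate 2 or 3 it was 1, where 1 and 2 of all genes were called higher.

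RSB1 encodes a membrane protein that moves sphingoid long-chain bases out of the cell. It read 6866, 6200 and 8029 with MCPA-ME and 156.8, 132.4 and 217 without. The 2 groups were far apart, a log2 change of 5.40 ± 0.21 (SE, n = 3 each), or 42.3-fold, with a limma adjusted p of 0.00382, the lowest of all genes. In such whole cultures a change in every cell and a larger one in some of the cells cannot be told apart. CIS1, a small gene named for sensitivity to the mycotoxin citrinin when it is deleted, read 2732, 9281 and 4036 with MCPA-ME and 184.9, 179.4 and 205.2 without. Its control arrays were close together, while IC20 replicate 2 was the highest by a wide margin. The log2 change was 4.63 ± 0.45 (adjusted p = 0.03), and it was 4.13 without that array (adjusted p = 0.0257). With any other single array left out CIS1 was not called (highest adjusted p = 0.179, without control replicate 2). It passed in 8 of the 15 alternative settings run for it. RSB1 passed the threshold in 13 of the 15 alternative settings run for it, more than any other called gene, and 31 of the 61 named called genes passed in at least 0.5 of theirs.

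The ABC exporters of this group rose by different amounts. YOR1, which exports oligomycin and anionic compounds, read 8252, 12310 and 10760 with MCPA-ME and 2492, 1862 and 1780 in controls, a log2 change of 2.35 ± 0.21 (adjusted p = 0.028). PDR15, a close relative of PDR5, read 1951, 2537 and 3491 with MCPA-ME and 786.2, 484.7 and 490.7 in controls (2.18 ± 0.29, adjusted p = 0.0451). PDR5, the main multidrug exporter, read 21850, 22190 and 22930 with MCPA-ME and 7790, 6122 and 5269 in controls (1.82 ± 0.16, adjusted p = 0.028). The 3 IC20 values of PDR5 lay close together and the controls were more spread, as they also were for SNQ2. SNQ2, an exporter of quinoline-like drugs, read 12760, 12100 and 12680 with MCPA-ME and 5396, 4319 and 4384 in controls (1.42 ± 0.11, adjusted p = 0.0279). PDR10 encodes another ABC protein close to PDR5. It read 1075, 959.8 and 1314 with MCPA-ME and 1128, 729.6 and 743.3 in controls, so the groups overlapped and the log2 change of 0.38 was not called (adjusted p = 0.548).

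PDR3, the gene for the regulator Pdr3 itself, read 1647, 1745 and 2046 with MCPA-ME and 482.4, 338.7 and 393.2 without, a log2 change of 2.17 ± 0.16 (adjusted p = 0.0279). The gene for its partner PDR1 read 1543, 1494 and 1837 with MCPA-ME and 1063, 1274 and 1237 without. Those PDR1 values did not overlap either, but the log2 change of 0.45 ± 0.12 was not called (adjusted p = 0.224). Among the lipid genes, ICT1, which encodes a lysophosphatidic acid acyltransferase, read 7239, 8499 and 6744 with MCPA-ME and 1735, 1476 and 872.8 without (2.51 ± 0.28, adjusted p = 0.0369). PDR16, a phosphatidylinositol transfer protein gene, read 7189, 12660 and 7999 with MCPA-ME and 2957, 3678 and 3383 without. The PDR16 groups did not overlap, and the change was not called (adjusted p = 0.077). Without IC20 replicate 2, the highest array, PDR16 was called (adjusted p = 0.0284), with a log2 change of 1.19.

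**Figure D1:**
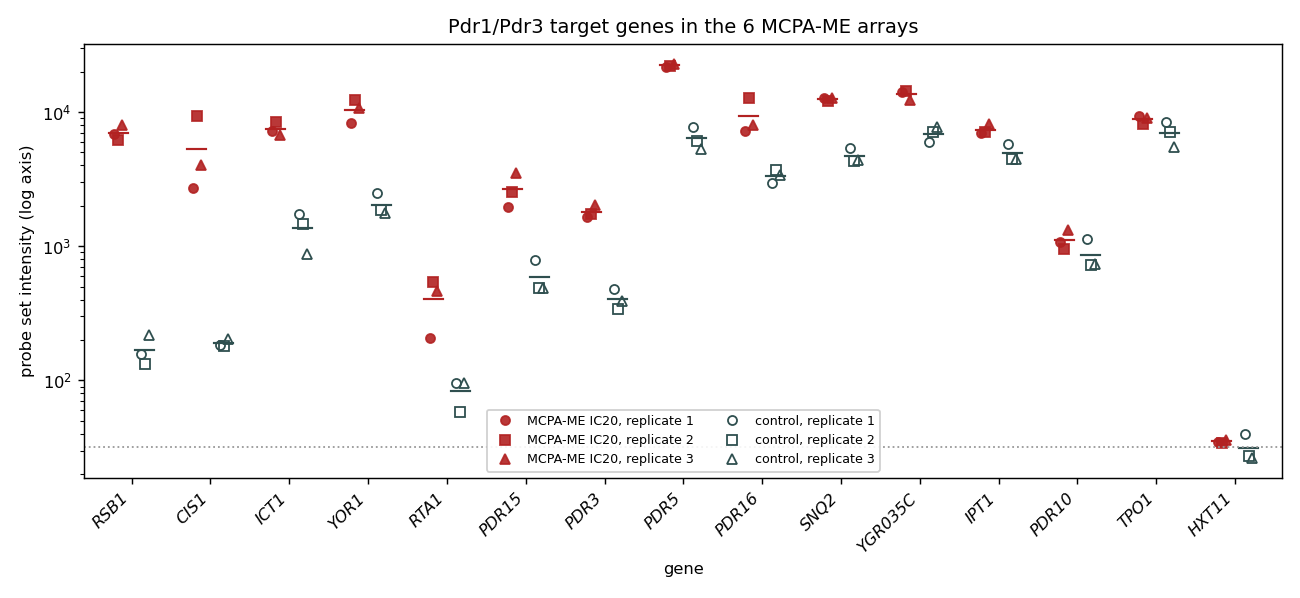
Probe set intensity (log axis) of 15 Pdr1/Pdr3 target genes in each array. Filled red symbols are the 3 MCPA-ME IC20 arrays, open dark symbols the 3 control arrays, short lines the group means and the dotted line the floor of 32. RSB1 sits at 6200 to 8029 with MCPA-ME and 132.4 to 217 in controls, while the values of PDR10, TPO1 and HXT11 overlap between the groups.

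The remaining members of the group, apart from HXT9, whose probe set can match relatives, lay closer to their controls or varied more. YGR035C, a gene of unknown function, rose by a log2 change of 0.98 ± 0.13 (adjusted p = 0.0439), with 14100, 14390 and 12240 with MCPA-ME and 5938, 7094 and 7677 without. RTA1, named for resistance to aminocholesterol, read 208.6, 537 and 467 with MCPA-ME and 95, 58.6 and 95.2 without (2.21 ± 0.42, adjusted p = 0.111). IPT1, the last enzyme of complex sphingolipid synthesis, read 6978, 7088 and 8114 with MCPA-ME and 5798, 4485 and 4488 without (adjusted p = 0.159). RTA1 and IPT1 did not overlap between groups but were not called. TPO1, a polyamine exporter gene, and the hexose transporter gene HXT11 overlapped between groups, with log2 changes of 0.36 and 0.03.

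Beyond this group, the largest called rises were in genes with varied roles. GRE2, which encodes a methylglyoxal reductase, read 10830, 11900 and 12790 with MCPA-ME and 1866, 1769 and 2239 without. These groups were far apart, a log2 change of 2.60 ± 0.12 (adjusted p = 0.00544). SRL3, a gene that in extra copies rescues loss of the checkpoint kinase Rad53, read 1819, 2850 and 2521 with MCPA-ME and 336.4, 406.6 and 554.3 without (log2 change 2.48 ± 0.25, adjusted p = 0.03). ATG40, which encodes a receptor for autophagy of the endoplasmic reticulum, read 3347, 2516 and 3728 with MCPA-ME and 743.5, 530.5 and 627.9 without (2.33 ± 0.20, adjusted p = 0.028). YGP1, a secreted glycoprotein gene known for its response to starvation, read 13420, 17530 and 15420 with MCPA-ME and 2466, 2895 and 5164 without (2.21 ± 0.30, adjusted p = 0.0464). Every IC20 array lay above every control array in these 3 genes, and control replicate 3 was the highest control for SRL3 and YGP1. YHR140W, of unknown function, read 1510 to 2232 with MCPA-ME and 282.4 to 441.6 without (2.27 ± 0.23, adjusted p = 0.03). BDH2, a relative of butanediol dehydrogenase, read 586.1, 548.8 and 921.8 with MCPA-ME and 204, 155.3 and 192.8 without (1.87 ± 0.24, adjusted p = 0.0421). PRM6, a pheromone-regulated membrane protein gene, was dim in controls: it read 170.5, 252.2 and 221.3 with MCPA-ME and 52.8, 63.3 and 65.3 without (1.82 ± 0.18, adjusted p = 0.03).

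Smaller rises were called in metabolic enzymes and regulators. BNA2, the tryptophan dioxygenase that opens NAD synthesis from tryptophan, read 966.9, 1094 and 953.1 with MCPA-ME and 392, 302.2 and 249.1 without (log2 change 1.70 ± 0.18, adjusted p = 0.0357). BNA4, the monooxygenase of the same route, rose 1.75-fold (adjusted p = 0.0421). HMX1, the heme oxygenase, read 644.6, 767.8 and 692.7 with MCPA-ME and 245.2, 237.5 and 203 without (3.07-fold, adjusted p = 0.0279). In BNA2 and HMX1 the lowest IC20 array was above the highest control by more than the spread within either group. MET28, a leucine zipper regulator of sulfur genes, rose by a log2 change of 1.59 ± 0.13 (adjusted p = 0.0279). MPC3, a subunit of the mitochondrial pyruvate carrier, read 6573, 5010 and 6895 with MCPA-ME and 2044, 1813 and 2423 without (1.55 ± 0.17, adjusted p = 0.0369). IC20 replicate 2 was the lowest IC20 array for MPC3 and still above every control. RPN4, the transcription factor of the proteasome genes, read 5549, 5584 and 5512 with MCPA-ME and 2663, 3523 and 3030 without (0.86 ± 0.12, adjusted p = 0.0476). LAC1, a ceramide synthase gene, read 13040, 13760 and 14010 with MCPA-ME and 8483, 6779 and 8084 without (0.81 ± 0.11, adjusted p = 0.0449). The IC20 arrays of RPN4 and LAC1 differed little among themselves. Genes of low level also rose. MEI4 and SPO11, both needed for meiotic recombination, had log2 changes of 1.47 (adjusted p = 0.03) and 1.21 (adjusted p = 0.03). MEI4 read 127.4 to 137.6 with MCPA-ME and 41.8 to 57 without. The other called rises lay between 0.59 and 1.56. They were IRC18, the protein kinase homolog KDX1, the basic amino acid transporter ALP1, the iron-responsive regulator YAP5, the mitochondrial lyase ICL2, YHL048C-A, SHH3, PRM9, the mating gene FIG1, the exocytosis gene SRO77, the nuclear fusion gene PRM2, the putative amidase AMD2, ICY1, PRM15, PRM5, SDD1, the lactate dehydrogenase CYB2, RGL1, the kinesin gene KIP1, USB1, the coenzyme A synthesis gene CAB2 and YKL107W, and 1 further gene measured by a probe set that can match relatives.

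The deepest fall was in PDR12, the weak acid exporter. It read 1441, 546.6 and 1124 with MCPA-ME and 8854, 6995 and 6321 without. Every IC20 array was far below every control, IC20 replicate 2 the lowest, and the log2 change was -2.93 ± 0.39 (7.62-fold lower, adjusted p = 0.0439). Without IC20 replicate 2 it was -2.52 (adjusted p = 0.0257). With any other single array left out PDR12 was not called (highest adjusted p = 0.228, without control replicate 2). It passed in 7 of the 15 alternative settings run for it. YBL029W, an uncharacterised reading frame, read 244.5, 125.5 and 149.1 with MCPA-ME and 801.5, 1128 and 1083 without (-2.58 ± 0.29, adjusted p = 0.0369). HXT2, a high-affinity glucose transporter gene, read 3546, 2037 and 3798 with MCPA-ME and 15600, 11890 and 13060 without (-2.16 ± 0.27, adjusted p = 0.0421). IC20 replicate 2 was the lowest array for all 3 genes, and none of them overlapped between the groups.

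The other named falls were between -0.55 and -1.69. RGS2, which dampens glucose signalling through cAMP, read 279.9, 425.9 and 405.3 with MCPA-ME and 1001, 1381 and 1175 without (-1.69 ± 0.21, adjusted p = 0.0421). YOR338W, of unknown function, read 511.5, 674.4 and 666 with MCPA-ME and 1481, 1677 and 1755 without (log2 change -1.42, adjusted p = 0.03). MSN4, one of the paired general stress regulators, read 775.3, 641.5 and 863.3 with MCPA-ME and 1636, 1518 and 1697 without (-1.10 ± 0.13, adjusted p = 0.0421). In each of these genes the 2 groups stood apart by more than the spread within them. TPO3, a polyamine transporter gene, read 290.1, 216.4 and 298.9 with MCPA-ME and 741.5, 624.8 and 580.6 without (-1.28 ± 0.17, adjusted p = 0.0439). CLB1, a mitotic cyclin gene, read 1920, 1796 and 1650 with MCPA-ME and 3245, 3938 and 3372 without (-0.97 ± 0.11, adjusted p = 0.0381). CLB1, like TPO3, had no control as low as any IC20 array. The biotin genes BIO5 and BIO4, a transporter and a synthetase, had changes of -0.96 and -0.73 (adjusted p = 0.0421 and 0.0439). The sporulation genes SPO21 and SPR2 had changes of -1.24 and -1.20 (adjusted p = 0.0369 and 0.03), SPR2 reading near the floor at 27.5 to 41.4 with MCPA-ME and 79.9 to 89 without. The checkpoint gene RAD17 and the transcription gene BYE1 changed least, by -0.58 and -0.55 (adjusted p = 0.0421 and 0.0439). One further called fall was in a gene whose probe set can match relatives.

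**Figure D2:**
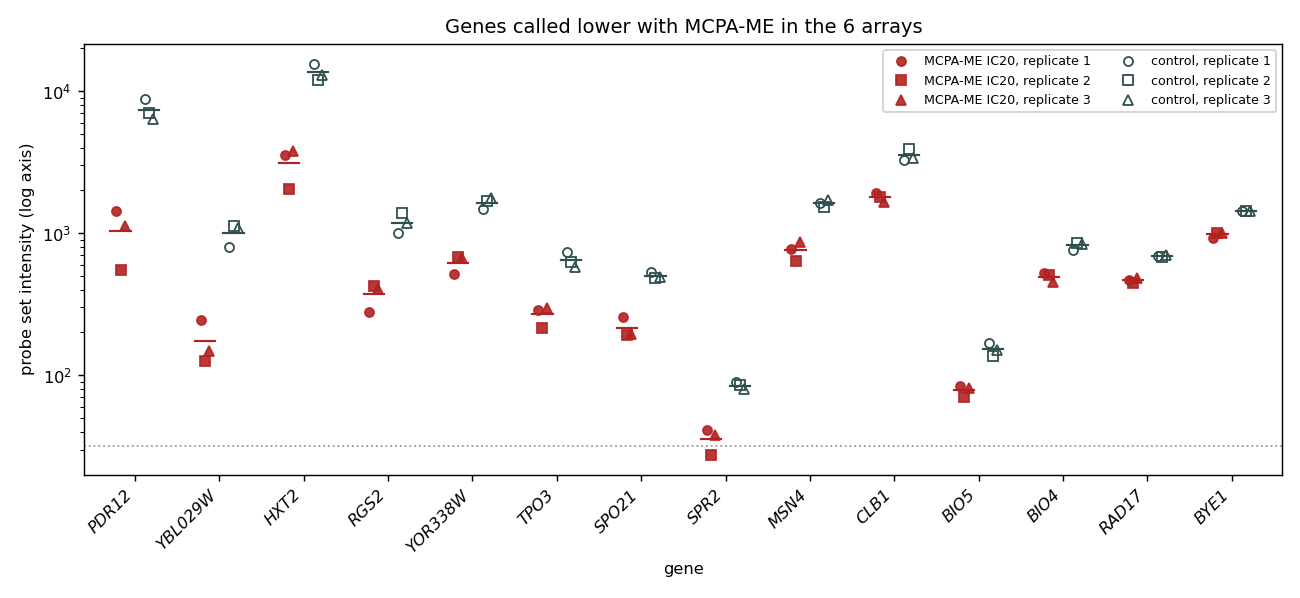
Probe set intensity (log axis) of the 14 named genes that were called lower, array by array. Filled red symbols are the 3 MCPA-ME IC20 arrays, open dark symbols the 3 control arrays, short lines the group means and the dotted line the floor of 32. PDR12 lies at 546.6 to 1441 with MCPA-ME and 6321 to 8854 in controls, and no gene shown overlaps between the groups.

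Among the genes known for the response to weak acids calls went both ways. Of 12 measured, 2 fell (PDR12 and TPO3, against 0.275% of all genes) and 1 rose (YGP1, against 0.881%). Only 2 of the 12 changes were positive, against 45.6% over all genes, and the median log2 change was -0.94. The median was -0.56 without IC20 replicate 2, and 3 of the 12 were then called lower, against 5.1% of all genes. The regulator genes WAR1 and HAA1 had changes of -0.22 and -0.25 (adjusted p = 0.658 and 0.568), with values that overlapped between the groups. HSP30, a membrane protein that restrains the plasma membrane proton pump, read 419.1, 382.2 and 3001 with MCPA-ME and 1451, 2519 and 7273 without. The HSP30 groups overlapped, replicate 3 being the highest array in both, and its log2 change of -1.93 ± 1.02 was not called (adjusted p = 0.507). SPI1, a wall protein gene, had the same order, with 881.5, 716 and 3153 with MCPA-ME and 2094, 3603 and 5781 without (adjusted p = 0.443). MRH1, a membrane protein related to Hsp30, read 21310 to 23240 with MCPA-ME and 22340 to 23700 without.

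Proton-driven drug transporters form a separate family of exporters. Of 16 measured, 1 fell (TPO3, against 0.275% of all genes), 0 rose by limma, also at an unadjusted p under 0.05, and the median log2 change was -0.12. The median was 0.01 with IC20 replicate 2 left out, and 3 were then called lower, against 5.1% of all genes. AQR1, which exports short-chain acids and amino acids, read 3086, 1683 and 2610 with MCPA-ME and 8189, 7267 and 6831 without (-1.64, adjusted p = 0.0586). AQR1 did not overlap between the groups and was called without IC20 replicate 2 (-1.38, adjusted p = 0.0257). TPO2, a relative of TPO3, read 3684, 2213 and 3345 with MCPA-ME and 5990, 5556 and 5354 without (-0.90 ± 0.21, adjusted p = 0.159, and 0.0316 without IC20 replicate 2). FLR1, known for its response to benomyl through Yap1, read 1022, 568.8 and 950.1 with MCPA-ME and 850.1, 611.6 and 482.2 without, which overlapped (adjusted p = 0.7). In 15 of the 16 genes IC20 replicate 2 was below both other IC20 arrays (93.8%, against 52.9% of all genes).

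Of 18 regulator genes of drug and stress responses, 1 rose (RPN4, against 0.881% of all genes) and 1 fell (MSN4, against 0.275%). With IC20 replicate 2 left out, 5 were called higher (against 2.29% of all genes) and 1 lower (against 5.1%). STB5, a partner of Pdr1, read 439.7, 342.8 and 417.3 with MCPA-ME and 277.2, 237.5 and 250.1 without (0.65, adjusted p = 0.117, and 0.0304 without IC20 replicate 2). CAD1, a relative of YAP1, read 751.1, 823.2 and 833.9 with MCPA-ME and 593.2, 617.8 and 569.7 without (0.44, adjusted p = 0.106). STB5 and CAD1 did not overlap between groups. YAP1, the regulator of oxidative stress genes, had a change of 0.22 (adjusted p = 0.559) and overlapped. Among 18 Yap1 targets 1 was called, GRE2, against 0.881% of all genes, and the median log2 change was 0.07. At an unadjusted p under 0.05, 5 of the 18 were higher, against 7.65% of all genes, and 7 lay above their controls without overlap, against 10.8%. Of 10 genes of ester synthesis and hydrolysis 0 were called by limma. At an unadjusted p under 0.05, 1 was higher and 1 lower, against 7.65% and 5.21% of all genes. EEB1, an ethyl ester synthase gene, read 1641, 858.1 and 2045 with MCPA-ME and 6005, 4967 and 5865 without (-1.98, adjusted p = 0.0866, and 0.0257 without IC20 replicate 2). ATF2, an alcohol acetyltransferase gene, read 1496, 913.7 and 1581 with MCPA-ME and 847.9, 679.6 and 736.4 without (0.78 ± 0.24, adjusted p = 0.259, and 0.0284 without IC20 replicate 2).

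The remaining gene lists held 0 to 2 calls each, to be read against 0.881% of all genes higher and 0.275% lower. In hexose transport and glucose repression 2 of 23 genes fell, HXT2 and the gene with the shared probe set, and the median log2 change was -0.22. That median was -0.04 without IC20 replicate 2, and 4 were then called lower, against 5.1% of all genes. HXT4 read 2901, 830 and 2506 with MCPA-ME and 10020, 8569 and 10220 without (-2.40, adjusted p = 0.128). HXT1, the low-affinity glucose transporter gene, read 5376, 1522 and 4208 with MCPA-ME and 13400, 11350 and 10410 without (-1.84 ± 0.49, adjusted p = 0.207). Both were lowest in IC20 replicate 2, did not overlap between the groups, and passed without that array (adjusted p = 0.0257 and 0.0316). Each passed in only 2 of the 15 alternative settings run for it. In the mitochondrial pyruvate and lactate list 2 of 13 rose (MPC3 and CYB2). In the iron and copper list 1 of 34 rose (HMX1), in the autophagy list 1 of 32 (ATG40), and in the sphingolipid list 1 of 27 (LAC1). In sulfur assimilation 1 of 28 rose (MET28), among amino acid permeases 1 of 21 (ALP1), and in the general stress list 1 of 30 (YGP1). The median of the general stress list was -0.39, and -0.24 without IC20 replicate 2, with 4 of 30 changes positive against 45.6% of all genes. Of 25 ergosterol genes 24 had positive changes, against 45.6% of all genes, with a median of 0.16. None of the 25 was called by limma, and 5 were higher at an unadjusted p under 0.05, against 7.65% of all genes. The largest of them, ERG3, the sterol desaturase gene, read 10100, 13170 and 12140 with MCPA-ME and 7866, 6076 and 7835 without (0.70 ± 0.16, adjusted p = 0.15). The 37 proteasome genes had 32 positive changes, against 45.6% of all genes, and a median of 0.16. There limma called 0, and 6 were higher at an unadjusted p under 0.05, against 7.65% of all genes. IC20 replicate 2 lay above both other IC20 arrays in 73% of them, against 35.7% of all genes. Without that array the median of the 37 was 0.09 and 3 were called lower, against 5.1% of all genes. The 122 cytosolic ribosomal protein genes had a median of -0.01 and 0 calls by limma. Of these, 1 was lower at an unadjusted p under 0.05, against 5.21% of all genes.

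Ribosome biogenesis genes divided the IC20 arrays. Over 84 such genes the median difference from the control mean was -0.47, 0.10 and -0.48 log2 units in IC20 replicates 1, 2 and 3, and 0.04, 0.06 and -0.06 in control replicates 1, 2 and 3. Thus replicates 1 and 3 were low and replicate 2 was level with the controls. In 70 of the 84 genes (83.3%) replicate 2 lay above both other IC20 arrays, against 35.7% of all genes. With all arrays limma called 0 of the 84, with 12 lower at an unadjusted p under 0.05, against 5.21% of all genes. Without replicate 2 limma called 33 lower, against 5.1% of all genes. RRP36, which acts in early processing of ribosomal RNA, read 311.7, 1379 and 244.1 with MCPA-ME and 1282, 593.8 and 954 without (-0.93 ± 0.73, adjusted p = 0.68, and 0.0635 without replicate 2). NOP16, a gene of large subunit assembly, read 867.2, 3544 and 724.8 with MCPA-ME and 2622, 1760 and 2348 without (-0.76 ± 0.64, adjusted p = 0.71, and 0.0345 without replicate 2). FAF1, needed for small subunit rRNA, read 458.1, 1485 and 407.8 with MCPA-ME and 1163, 901 and 1129 without (adjusted p = 0.67, and 0.0284 without replicate 2). In all 3 genes replicate 2 exceeded every control array. Of the 10 genes with the widest spread among IC20 arrays, 8 had replicate 2 as the high array in the same way: RRP14, RRP36, CSN9, CGR1, TMA23, KRI1, NOP16 and CHZ1. The exceptions were HSP30 and SPO19.

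Other lists went the opposite way in IC20 replicate 2. Its median difference from the control mean was -0.73 over 21 amino acid permease genes, where replicates 1 and 3 had 0.11 and -0.02. Over 12 weak acid genes it was -1.16, where replicates 1 and 3 had -0.57 and -0.19. Over 8 arginine synthesis genes it was -0.85, with -0.05 and -0.32 in replicates 1 and 3, and replicate 2 was the lowest array in 8 of 8. The Pdr1/Pdr3 targets were at 1.41, 1.87 and 1.65 in replicates 1, 2 and 3, with controls at 0.26, -0.11 and -0.12, so for these all IC20 arrays were well above all control arrays. Whether a difference between cultures or in the handling of the arrays accompanied replicate 2 was not tested.

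**Figure D3:**
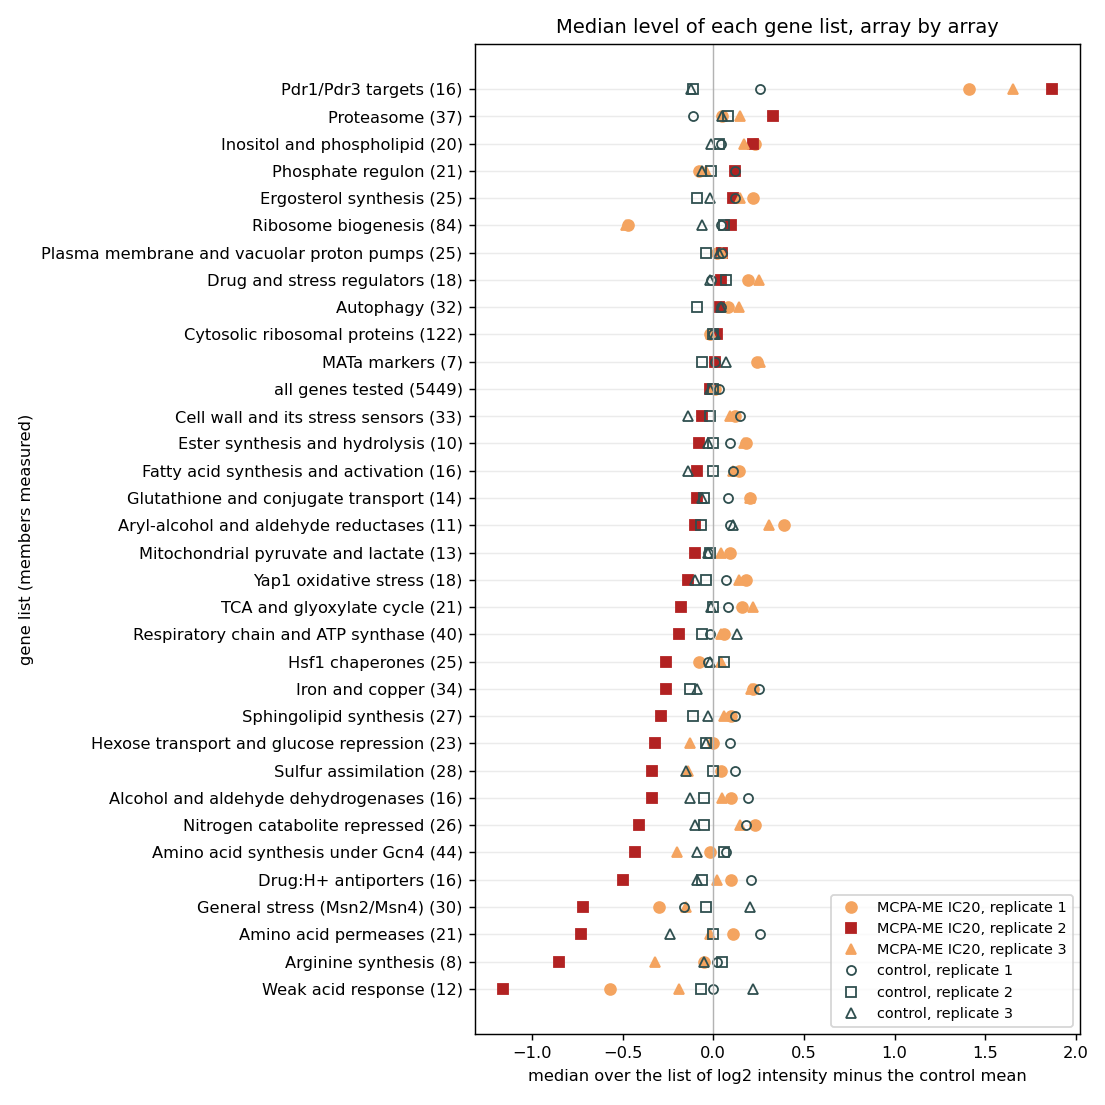
Median over each gene list of log2 intensity minus the control mean, for every array, with lists sorted by IC20 replicate 2. Orange circles and triangles are IC20 replicates 1 and 3, red squares IC20 replicate 2 and open dark symbols the controls. Pdr1/Pdr3 targets lie at 1.41 to 1.87 in all 3 IC20 arrays, whereas ribosome biogenesis genes lie at 0.10 in replicate 2 and at -0.47 and -0.48 in the others.

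The control arrays also differed in particular genes. PRY1, which encodes a sterol-binding secreted protein, read 448.3, 334.9 and 389.4 with MCPA-ME and 6210, 1119 and 496.4 in control replicates 1, 2 and 3. TOS6, a wall protein gene, read 991.5, 490.2 and 617.5 with MCPA-ME and 7796, 1181 and 535.4 in controls. CYS3, the cystathionine gamma-lyase gene, read 4308, 1572 and 1852 with MCPA-ME and 10360, 5443 and 1158 in controls. In each gene control replicate 1 was the highest and control replicate 3 the lowest of the controls. The same order held for the 10 genes with the widest control spread, the others being DSK2, MGR1, SLS1, CAR2, MRPL4, SNA4 and MSL5. Their changes were not called (adjusted p = 0.461 for PRY1, 0.672 for TOS6 and 0.793 for CYS3).

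Large differences without a call were common: 20 genes had a log2 change over 1 and 69 one under -1 that missed the threshold. YPL088W, a putative aryl alcohol dehydrogenase gene, read 2885, 10660 and 4785 with MCPA-ME and 851.3, 829.1 and 881.1 without (2.63 ± 0.48, adjusted p = 0.102). INO1, the inositol phosphate synthase gene, read 3537, 9108 and 3076 with MCPA-ME and 862.5, 760.6 and 919.6 without (2.45 ± 0.43, adjusted p = 0.0938). In both genes the groups stood apart and IC20 replicate 2 was the highest, and both passed without it (adjusted p = 0.0284 and 0.0257). Each passed in only 3 of the 15 alternative settings run for it. MGA1, a gene related to heat shock factors, read 61.1, 50.7 and 128.4 with MCPA-ME and 324.7, 269.2 and 474.1 without (-2.23 ± 0.41, adjusted p = 0.106). FMP48, a putative kinase gene, read 370, 339.1 and 790.2 with MCPA-ME and 1221, 1918 and 3269 without (-2.09 ± 0.49, adjusted p = 0.161). For MGA1 and FMP48 replicate 3 was the highest array in both groups.

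The change with MCPA-ME was then set against the mean change with the other 5 pesticides, each against its own controls, in a fit to all 36 arrays with weights for the spread of each group. MCPA-ME differed upward in 20 genes (0.367% of those tested) and downward in 49 (0.899%), together 69 (1.27%). Of these, 18 were also called in the 6 MCPA-ME arrays, 12 higher and 6 lower. Without IC20 replicate 2 the counts were 143 and 272, without IC20 replicate 3 they were 4 and 11, and without control replicate 2 they were 8 and 23. Without IC20 replicate 1 the upward count was 13.

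Of the 16 measured targets of Pdr1 and Pdr3, 6 differed upward, against 0.367% of all genes. RSB1 had a log2 change of 5.40 with MCPA-ME, against 4.33 with alachlor, -0.60 with carbofuran, 4.51 with diuron, 3.28 with pyrimethanil and 5.23 with S-metolachlor. Its difference from their mean of 3.35 was 2.05 ± 0.31 (SE, limma adjusted p = 0.000362). The S-metolachlor change of RSB1 was close to that with MCPA-ME, and carbofuran had the lowest. CIS1 had 4.63 with MCPA-ME, against 2.62 with alachlor, -0.23 with carbofuran, 4.04 with diuron, 1.33 with pyrimethanil and 4.99 with S-metolachlor (difference 2.08 ± 0.39, adjusted p = 0.00399). PDR3 had 2.17 with MCPA-ME, against 0.41 to 0.88 with the other 5 (difference 1.55 ± 0.27, adjusted p = 0.00141). PDR15 had 2.18 with MCPA-ME, against -0.09 to 1.65 with the other 5 (difference 1.64 ± 0.24, adjusted p = 0.000362). For PDR3 and PDR15 the MCPA-ME change was thus above each of the other 5 pesticides, and for CIS1 it was below that with S-metolachlor. PDR5 had 1.82 with MCPA-ME and a mean of 0.86 with the others (difference 0.96 ± 0.13, adjusted p = 0.000362). YOR1 had 2.35 with MCPA-ME and a mean of 1.48 with the others (difference 0.87 ± 0.19, adjusted p = 0.014). SNQ2 and GRE2, which is no member of the list, had 1.42 and 2.60 with MCPA-ME and 1.07 and 2.31 with the others and did not pass (adjusted p = 0.292 and 0.58).

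PRM6 and SRL3 had differences near that of RSB1. PRM6 had a log2 change of 1.82 with MCPA-ME, against -0.65 to 0.16 with the other 5 (difference 2.05 ± 0.31, adjusted p = 0.000362). SRL3 had 2.48 with MCPA-ME, against 1.69 with diuron and -0.47 to 0.73 with the remaining 4 (difference 2.03 ± 0.52, adjusted p = 0.0492). For both genes the MCPA-ME change was above that with each of the other 5 pesticides, with diuron next for SRL3. SPO11 had 1.21 with MCPA-ME and a mean of 0.15 with the others (difference 1.06 ± 0.23, adjusted p = 0.0117). LAC1, the ceramide synthase gene, had 0.81 with MCPA-ME and a mean of 0.37 with the others (adjusted p = 0.032).

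Among the largest downward differences were PDR12, the glucose transporter genes HXT1 and HXT2, AQR1, YOR338W and HSP12. PDR12 had -2.93 with MCPA-ME, against -0.99 with alachlor, -0.43 with carbofuran, -1.60 with diuron, -0.87 with pyrimethanil and -1.97 with S-metolachlor (difference -1.76 ± 0.28, adjusted p = 0.00058). It was thus below its controls with every pesticide and furthest with MCPA-ME. HXT2 had -2.16 with MCPA-ME and -2.14 with diuron, against -0.82 to 0.40 with the remaining 4 (difference -1.51 ± 0.26, adjusted p = 0.00141). HXT1 had -1.84 with MCPA-ME, against -0.88 to 0.40 with the other 5 (difference -1.73 ± 0.24, adjusted p = 0.000362). AQR1 had -1.64 with MCPA-ME, against -0.83 to 0.09 (difference -1.36 ± 0.22, adjusted p = 0.000814). HXT2 thus had nearly the same change with diuron, whereas HXT1 and AQR1 were lower with MCPA-ME than with each of the others. YOR338W was -1.42 with MCPA-ME, while the others ran from -0.43 to 1.89. HSP12, a small heat shock protein gene of the plasma membrane, had -0.42 with MCPA-ME, against 0.72 to 2.98 with the other 5 (difference -1.87 ± 0.36, adjusted p = 0.00497). The 3 IC20 values of HSP12 were 1180, 2765 and 1434, against 1651, 2431 and 2815 in controls, so in its own experiment it overlapped.

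Arginine synthesis genes differed downward as well. Of 8 measured, 6 passed (ARG1, ARG3, ARG4, ARG7, ARG8 and ORT1), against 0.899% of all genes. Without IC20 replicate 2, 6 also passed, in a fit where 272 of the 5449 genes differed downward. ARG8, the acetylornithine aminotransferase gene, read 10200, 4357 and 7259 with MCPA-ME and 10640, 10950 and 10030 without, with adjusted p = 0.00146 for the difference. ARG1, the argininosuccinate synthase gene, read 23990, 15860 and 20930 with MCPA-ME and 25560, 25570 and 24100 without, with adjusted p = 0.00133 for the difference. Against their own controls alone 0 of the 8 were called by limma, with 1 lower at an unadjusted p under 0.05, against 5.21% of all genes. The median log2 change of the 8 was -0.40 with MCPA-ME, or -0.19 without IC20 replicate 2, against 0.18 for the mean of the others. DUR3, the urea transporter gene, read 976.5, 405.6 and 744 with MCPA-ME and 2225, 1754 and 1524 without, and differed by -1.54 ± 0.23 (adjusted p = 0.000362). The GCN4 gene itself, which encodes the activator of amino acid synthesis genes, read 23010 to 24670 with MCPA-ME and 22230 to 23390 without.

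**Figure D4:**
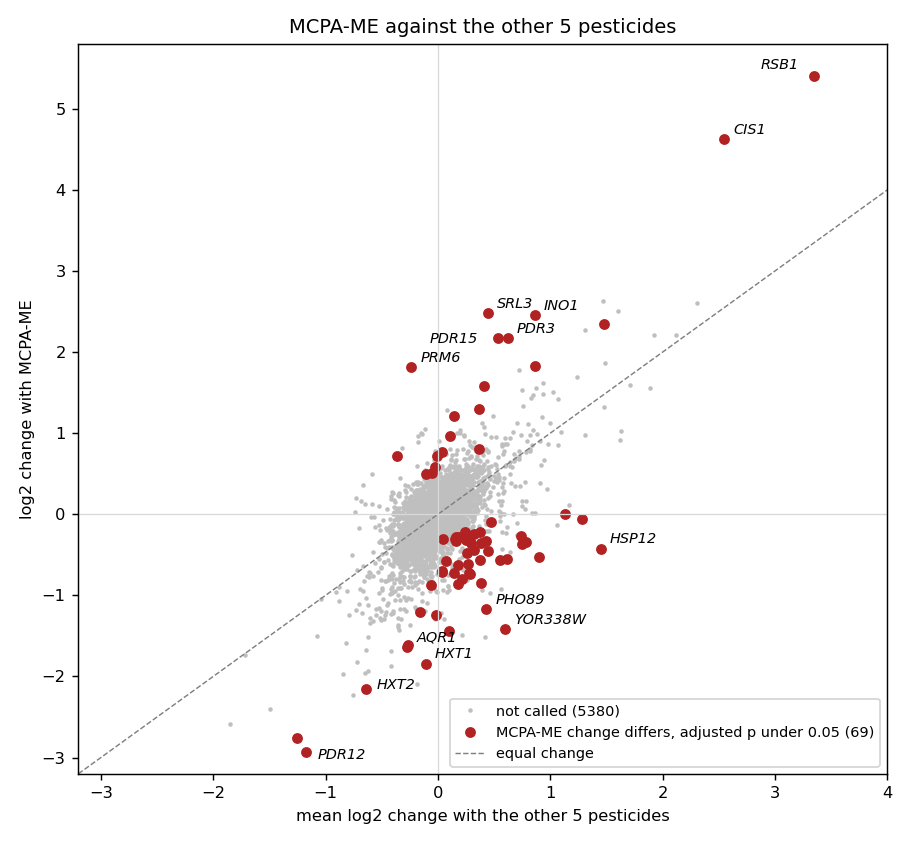
Log2 change with MCPA-ME (vertical axis) against the mean log2 change with the other 5 pesticides (horizontal axis), 1 point per gene. Red points are the 69 genes whose MCPA-ME change differed at an adjusted p under 0.05 in the 36-array fit, grey points the other 5380, and the dashed line marks equal change. RSB1, CIS1, PRM6, SRL3, PDR15 and PDR3 lie above the line, and PDR12, HXT2, HXT1, YOR338W and HSP12 below it.

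Across genes, the MCPA-ME changes were most like those with diuron and alachlor. Pearson's r over the 5449 genes was 0.64 with diuron, 0.62 with alachlor, 0.51 with S-metolachlor, 0.29 with pyrimethanil and 0.14 with carbofuran. These values describe the profiles and carry no p, since genes are not independent replicates. Leaving out IC20 replicate 2 gave 0.55 with diuron, 0.54 with alachlor, 0.37 with carbofuran, 0.33 with S-metolachlor and 0.21 with pyrimethanil, so carbofuran moved above S-metolachlor and pyrimethanil. Of the 63 called genes, 60 had the same sign with diuron, 56 with alachlor, 54 with S-metolachlor, 52 with pyrimethanil and 38 with carbofuran. The matching shares over all genes were 68.9%, 67.3%, 59.2%, 57.8% and 55%. The 48 called rises had a median change of 0.88 with diuron and 0.08 with carbofuran, and the 15 called falls had -0.53 and -0.23.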

How the data were processed

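The authors deposited linear intensities per probe set, made with Affymetrix Expression Console per the submitters' processing notes. Its version and the normalization between arrays were not given in the sources used here. Of 5716 probe sets 5498 had 1 gene in the platform annotation and 218 had none. For the 47 genes with several, the probe set with the highest mean over 36 arrays was kept, giving 5449 genes, and 12 symbols were updated through RefSeq. The 120 genes on probe sets ending in _s_at or _x_at, which can match relatives, were tested and not named. Of the values in the 6 MCPA-ME arrays 1.798% lay under the floor of 32.

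The log2 values were fitted with limma 3.58.1 in R 4.3.3, in a two-sided test on the 6 MCPA-ME arrays (4 residual degrees of freedom, 5.45 after moderation). The contrast with the other 5 pesticides used all 36 arrays and 1 weight per group (24 residual degrees of freedom, 25.92 after moderation). The Benjamini-Hochberg adjustment ran over all genes. The precision is limited by the 3 arrays per group and by the spread among them. Genes open to naming were all called genes, the called and the 3 largest members of each list, and all members of the drug, weak acid, ester and strain lists. So were the 10 largest differences from the other pesticides in each direction, and the 10 widest spreads and 10 largest uncalled changes without overlap. Not every such list member is named in the text. The members and the gene lists were chosen with earlier results of these data known. The labels do not say whether equal replicate numbers pair the arrays, and the fits reported used no block. Deviations from the group mean correlated at 0.409, 0.039 and 0.027 for equal numbers, and at -0.429 to 0.264 for unequal ones. With so few arrays per group these values cannot settle the question. Alternatives were quantile normalization, median centring, adding 16 in place of the floor, a floor of 100, omitting the dimmest 25%, using every annotated probe set, limma's trend and robust options, array and group weights, a fit to 36 arrays with 1 shared spread, the 18 controls as 1 group, a replicate block and leaving out each array. The procedure was tested on simulated data with 1 spread per group and no array that stood apart, unlike IC20 replicate 2 here.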

Additional observations from a re-analysis of the deposited data

Results flagged for a closer look

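For 20 genes the test of the difference itself set the change with MCPA-ME apart from the mean change with the other 5 pesticides (limma, 36 arrays, adjusted p under 0.05, the 10 largest in each direction). The upward log2 differences were 2.08 for CIS1, 2.05 for PRM6, 2.05 for RSB1, 2.03 for SRL3, 1.64 for PDR15, 1.59 for INO1, 1.55 for PDR3, 1.18 for IML2, 1.08 for ASG7 and 1.06 for SPO11. The downward ones were -2.02 for YOR338W, -1.87 for HSP12, -1.76 for PDR12, -1.73 for HXT1, -1.60 for PHO89, -1.54 for DUR3, -1.51 for HXT2, -1.43 for NCA3, -1.36 for AQR1 and -1.34 for PRM7.

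IML2, needed to clear protein inclusion bodies, read 4174, 5322 and 5262 with MCPA-ME and 2204, 1583 and 1243 without. The 2 groups of IML2 did not overlap, and its adjusted p for the difference was 0.00393. ASG7, an a-specific gene, had a log2 change of 0.72 with MCPA-ME, against -1.84 with carbofuran and -0.58 to 0.46 with the remaining 4 pesticides. PHO89, the sodium phosphate cotransporter gene, had -1.17 with MCPA-ME, against -1.44 with pyrimethanil and 1.17 to 1.35 with alachlor, carbofuran and S-metolachlor. Its difference from the mean of the others thus rests on a mixture of directions among them. PRM7, a pheromone-regulated gene, read 1372, 1027 and 1467 with MCPA-ME and 5098, 3545 and 3246 without, and its change of -1.61 lay below the -0.49 to -0.03 of the other 5. NCA3, a gene of mitochondrial ATP synthase expression, read 337.1, 257.1 and 386 with MCPA-ME and 558.2, 371.6 and 483.9 without. The NCA3 groups overlapped, so its difference from the other pesticides does not stand for a clear fall against its own controls.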

How the results depend on the processing

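The numbers of genes called with MCPA-ME depended on the setting. Against 48 higher and 15 lower, there were 31 and 9 with quantile normalization, 13 and 2 with a floor of 100, 543 and 469 with 36 arrays and a shared spread, 97 and 69 with a weight per group, 434 and 392 with array weights, and 346 and 339 with the 18 controls as 1 group. Leaving out the dimmest 25% of genes left 28 higher. Leaving out 1 array gave 0 to 125 higher and 0 to 278 lower. With the replicate number as a block, limma called 1 gene higher (RSB1) and 0 lower, with 476 and 338 at an unadjusted p under 0.05. The labels do not say whether arrays of equal replicate number come from cultures handled together, and the check of their deviations cannot settle it. Of the Pdr1/Pdr3 targets, 9 in the 6 arrays, 5 were called with a floor of 100, 14 with 36 arrays and a shared spread, 1 with the replicate block and 0 to 10 with 1 array left out. The contrast with the other 5 pesticides, 20 higher and 49 lower, gave 233 and 237 with no weights, 7 higher with the dimmest 25% of genes left out, and 4 to 143 higher and 11 to 272 lower with 1 array left out. The cause of these shifts was not tested. Sign was followed for the named called genes, the 10 largest uncalled changes and the 20 genes set apart from the other pesticides. In the settings run for single genes 0 changed sign. Those settings did not include a weight per group for the MCPA-ME change, array weights or the 18 controls as 1 group. The called and uncalled genes did not overlap between groups, so leaving out an array could not reverse their sign. All 61 named called genes lost their call without IC20 replicate 1, and likewise without IC20 replicate 3. Of the 20 differences, 13 lost theirs without IC20 replicate 3. SPR2, SHH3 and YKL107W reached a change of 0 with a floor of 100.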
